A study of Mus musculus with 12 samples.

Results

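Hepatokines are proteins that the liver releases into the blood and that act on metabolism in other organs. The 9 genes examined here were named for that role: Fgf21, Angptl4, Angptl8, Enho, Ahsg, Fetub, Inhbe, Lect2 and Gdf15. A gene was taken as measured where the array platform's annotation gives its symbol to a probe set, a group of short probes for a transcript. On that rule 8 of the 9 genes were measured, by 12 of the 45101 probe sets on the array, and they are 8 of the 18194 genes tested. Gdf15 is not analysed here.

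The data are 12 arrays of mouse liver RNA from animals on a mixed SV129XC57Bl/6 background. LG2KO mice were treated with tamoxifen, and the name is read here as a liver knockout of Glut2, the glucose transporter encoded by Slc2a2. The labels of control mice name no tamoxifen, so the deletion and the drug cannot be told apart. Each genotype was sampled after refeeding that followed a fast (labelled fasted/refed) and after fasting alone, which gives 4 groups of 3 arrays: LG2KO refed, control refed, LG2KO fasted and control fasted. Each array carried a pool of RNA from 3 animals, so the errors below describe the spread between pools and not between animals. The labels used here do not give the promoter that drives the deletion, the animals' age or sex, or the hours of fasting and refeeding. The source label of the LG2KO fasted arrays reads fasted/refed, whereas their titles and diet labels read fasted, and the title and diet were used.

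The deleted gene followed the genotype labels. Slc2a2 averaged 3.75 log2 units on LG2KO refed arrays, against 10.96 on control refed arrays, and 3.90 on LG2KO fasted arrays, against 10.64 on control fasted arrays, and no genotype's arrays came near the other's. The hepatocyte genes Alb, Apoa1 and Ttr lay between 14.1 and 14.6 on all 12 arrays, as markers of the labelled tissue. Control refed array 1 and LG2KO fasted array 3 stood apart from their groups along the second principal component. Control fasted array 3 carried pancreas transcripts, with Ctrb1 at 9.18 against at most 5.51 on the other arrays. LG2KO refed array 2 had the highest adipose signal, with Adipoq at 6.81 and the mean of 7 adipose markers at 5.97, against at most 5.60 on the other 11. Where a hepatokine value rests on 1 of these 4 arrays, it is also given without that array.

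Several of these proteins report the feeding state. Angptl4 and Angptl8 encode inhibitors of lipoprotein lipase, the enzyme that releases fatty acids from circulating triglyceride: Angptl4 is known as a fasting-induced gene and target of the fatty acid sensor PPARalpha, and Angptl8 as a feeding-induced gene. Fgf21, a fasting and stress hormone, signals through FGF receptors with the co-receptor beta-klotho, and Inhbe encodes the subunit of activin E, which acts on adipose tissue. Enho encodes adropin, a peptide linked to fuel choice and insulin action, Lect2 encodes a chemotactic protein linked to insulin resistance in muscle, and Ahsg and Fetub encode fetuin-A and fetuin-B, of which fetuin-A inhibits the insulin receptor.

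Upstream sequence was available from RefSeq (build GRCm38.p6) for 6 of the 8 measured genes, in 7 windows of 250 bases ending just before the annotated start. Fgf21, Angptl8 and Inhbe are printed because their windows hold an exact copy of a C/EBP-ATF element, the composite site through which the stress factor ATF4 and its partners bind DNA, written as TTGCATCA or on the other strand TGATGCAA. The windows are chr7:45615491-45615740 on the minus strand for Fgf21, chr9:21835260-21835509 on the plus strand for Angptl8 and chr10:127351849-127352098 on the minus strand for Inhbe. Each is written 5′ to 3′ along the gene, and capitals mark the element and, in Fgf21, also the E-box CACGTG.
Fgf21: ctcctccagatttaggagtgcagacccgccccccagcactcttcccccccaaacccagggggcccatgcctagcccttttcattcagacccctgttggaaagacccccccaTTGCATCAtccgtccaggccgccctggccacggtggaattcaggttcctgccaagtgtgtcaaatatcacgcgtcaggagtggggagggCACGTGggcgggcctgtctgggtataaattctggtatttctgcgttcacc
Angptl8: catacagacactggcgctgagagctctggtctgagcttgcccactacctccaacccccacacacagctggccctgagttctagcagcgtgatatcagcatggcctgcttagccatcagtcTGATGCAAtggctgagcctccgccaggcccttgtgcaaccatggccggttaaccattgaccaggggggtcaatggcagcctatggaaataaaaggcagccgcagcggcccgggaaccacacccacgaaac
Inhbe: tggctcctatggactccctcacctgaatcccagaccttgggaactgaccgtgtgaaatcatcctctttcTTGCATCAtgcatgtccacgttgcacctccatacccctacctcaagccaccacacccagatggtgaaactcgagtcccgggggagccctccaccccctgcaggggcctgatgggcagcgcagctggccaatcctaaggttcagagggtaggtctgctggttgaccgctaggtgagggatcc
The element begins 139 bases before the start of Fgf21, 130 bases before that of Angptl8 and 181 bases before that of Inhbe. Of all 32851 windows of this length, 0.791% hold it on either strand. The E-box, read by basic helix-loop-helix factors, begins 50 bases before the start of Fgf21 and stands in 6.02% of windows. The nuclear receptor motif AGGTCA, searched on both strands, occurs in 0 of the 7 windows and in 14% of all windows. The motifs were chosen with these sequences in view, and a match is a description of the letters only.

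Angptl8 and Angptl4 were the hepatokines that changed with feeding in both genotypes, and they moved in opposite directions. Angptl8 was 6.65-fold higher in refed than in fasted LG2KO liver and 7.83-fold higher in refed than in fasted control liver. Angptl4 was 2.58-fold lower in refed than in fasted LG2KO liver and 2.53-fold lower in refed than in fasted control liver. Of the 8 genes, 2 passed the test of refeeding against fasting in LG2KO liver, where 7.05% of all genes passed, and 2 passed in control liver, where 6.46% passed. A gene passed where its adjusted p in limma, a linear model fitted to all 18194 genes, was below 0.05. Because whole liver was sampled, fewer cells of a type and less RNA per cell cannot be told apart.

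Angptl8 stood at 11.37, 11.97 and 10.90 log2 units on the LG2KO refed arrays and at 8.78, 8.57 and 8.68 on the LG2KO fasted arrays. In controls its values were 11.56, 11.63 and 11.14 after refeeding and at 9.13, 8.67 and 7.62 after fasting. All 6 refed arrays lay above all 6 fasted arrays, a separation in either direction that 7.24% of all genes showed, and within each feeding state the genotypes overlapped. The log2 difference between refed and fasted arrays was 2.73 ± 0.33 in LG2KO liver (± standard error here and below, limma, adjusted p = 0.0003656, n = 3 pools per group). For control liver the value was 2.97 ± 0.33 (limma, adjusted p = 0.0001775). The order of the group means was control refed, LG2KO refed, LG2KO fasted and control fasted, and the neighbours of equal feeding state were not separated by their arrays.

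The response of Angptl8 to feeding was not distinguishable between genotypes at this precision. The difference of the 2 responses, LG2KO minus control, was -0.24 ± 0.47 (limma, adjusted p = 0.9904), with a 95% interval from -1.25 to 0.78. LG2KO minus control was -0.03 ± 0.33 after refeeding and 0.20 ± 0.33 after fasting, and neither passed. The lowest fasted value, 7.62, came from the control array with pancreas transcripts, and without it the response in control liver was 2.54 (adjusted p = 0.0003214). The highest refed value, 11.97, came from the LG2KO array with the highest adipose signal, and without it the response in LG2KO liver was 2.46 (adjusted p = 0.002523). Leaving out that fasted control array turned the fasted genotype difference to -0.22.

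Angptl4 ran the other way. It stood at 10.08, 9.71 and 10.46 log2 units on the LG2KO refed arrays and at 11.45, 11.45 and 11.44 on the LG2KO fasted arrays. Control arrays gave 9.63, 10.12 and 10.37 after refeeding and at 11.48, 11.14 and 11.53 after fasting. Every refed array lay below every fasted array of either genotype, and the refed arrays were spread more widely than the LG2KO fasted ones. The difference between refed and fasted arrays was -1.37 ± 0.20 in LG2KO liver (limma, adjusted p = 0.001198) and -1.34 ± 0.20 in control liver (limma, adjusted p = 0.001388).

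For Angptl4 the genotype made a difference of 0.04 ± 0.20 after refeeding and 0.06 ± 0.20 after fasting, LG2KO minus control, and neither passed. The interaction was -0.02 ± 0.28, with a 95% interval from -0.63 to 0.58 (limma, adjusted p = 0.9975). A second Angptl4 probe set, 1453410_at, was dim on every array. It lay between 2.33 and 2.89 log2 units, at percentile 1.15 to 11.9 of all probe sets, and no difference was read from it. Adipose tissue also expresses Angptl4. Of the 7 adipose markers measured, out of 9 listed, 0 rose and 1, Plin4, fell with refeeding in LG2KO liver, while Plin4 and Lipe fell in control liver. The mean of the 7 ranged from 5.16 to 5.97 on LG2KO refed arrays and from 5.33 to 5.60 on LG2KO fasted arrays, and from 5.02 to 5.32 on control refed arrays and from 5.48 to 5.60 on control fasted arrays. Of the defining adipose genes, Lep lay between 3.13 and 3.73 on all 12 arrays. Adipoq varied more, at 3.35, 6.81 and 4.16 on LG2KO refed arrays and at 4.61, 4.33 and 3.60 on LG2KO fasted arrays, while it ranged from 3.15 to 3.42 on control refed arrays and from 3.25 to 3.77 on control fasted arrays. Without LG2KO refed array 2, where Adipoq was highest, the Angptl4 difference in LG2KO liver was -1.18 (limma, adjusted p = 0.0062). The marker mean lay lower on refed than on fasted control arrays, as Angptl4 did, and its ranges overlapped in LG2KO liver. The part of adipose tissue in the Angptl4 differences was not tested.

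**Figure D1:**
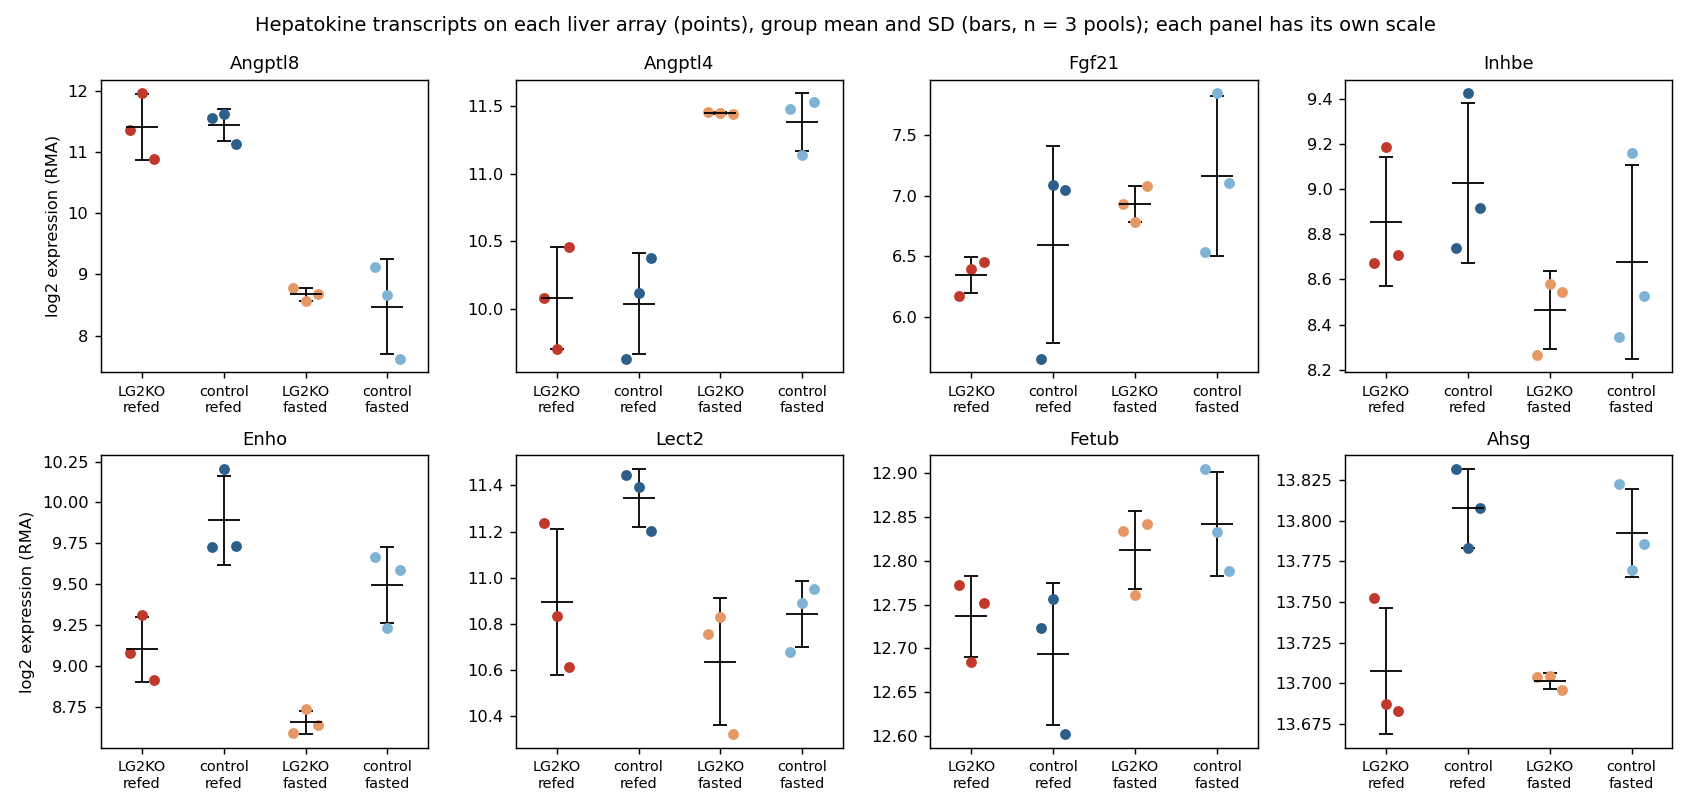
Log2 expression of the 8 measured hepatokine genes on each of the 12 arrays; points are arrays, bars are group mean and SD of 3 pools, and each panel has its own scale. Angptl8 lies between 10.90 and 11.97 on refed and between 7.62 and 9.13 on fasted arrays, Angptl4 lies lower on refed than on fasted arrays, and Enho lies lower on LG2KO arrays than on control arrays of the same feeding state.

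Enho was the hepatokine that differed with genotype. It was 1.79-fold lower in LG2KO than in control liver after fasting and 1.73-fold lower after refeeding, of which the fasted difference passed the test. In fasted liver 1 of the 8 genes passed, against 0.396% of all genes, and in refed liver 0 of 8 passed, against 0.379%. The refed count stood at 0 although 1661 genes had an unadjusted p below 0.05 in that comparison, 3 of the 8 hepatokine genes among them.

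Enho stood at 9.08, 9.31 and 8.92 log2 units on the LG2KO refed arrays, against 9.73, 10.21 and 9.74 on the control refed arrays. After fasting it stood at 8.59, 8.74 and 8.64 on LG2KO arrays, against 9.67, 9.23 and 9.59 on control arrays. In each feeding state no LG2KO array reached the lowest control array, and the LG2KO refed arrays overlapped the control fasted arrays. The difference between LG2KO and control was -0.84 ± 0.15 after fasting (limma, adjusted p = 0.03823) and -0.79 ± 0.15 after refeeding (limma, adjusted p = 0.05938). The interaction was 0.05 ± 0.22, with a 95% interval from -0.42 to 0.53 (limma, adjusted p = 0.9967).

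The call in fasted liver is a narrow one. Across the 12 fits that each left out 1 array its adjusted p lay between 0.02468 and 0.1821 and passed in 5. It was lost without LG2KO refed array 1, without control refed array 3, without control fasted array 1 or 3, and without LG2KO fasted array 1, 2 or 3. The difference itself stayed between -0.97 and -0.76 in those fits. The call was also lost without the intensity trend, with only the groups compared, with the 4 probe sets averaged, after hepatocyte centring, with the replicate block and without the arrays that stood apart. Over all 22 alternatives it passed in 8, with adjusted p from 0.02213 to 0.2428 and differences from -0.97 to -0.52, the smallest with probe sets averaged. Averaged over both feeding states, a comparison added after the values had been seen, Enho was lower in LG2KO liver, with a log2 difference of -0.81 ± 0.11 (limma, adjusted p = 0.003333, n = 6 pools per genotype). In that averaged comparison 1 of the 8 genes passed, against 1.02% of all genes. It passed in all 12 fits without 1 array, with differences from -0.88 to -0.74.

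Enho also differed with feeding when both genotypes were averaged. Refed minus fasted was 0.45 ± 0.15 in LG2KO liver (limma, adjusted p = 0.1201) and 0.39 ± 0.15 in control liver (limma, adjusted p = 0.2), neither of which passed. Averaged over genotype it was 0.42 ± 0.11 (limma, adjusted p = 0.02227). This averaged value passed in 8 of the 12 fits without 1 array and was lost without LG2KO refed array 2, control refed array 2, LG2KO fasted array 1 or control fasted array 2. The order of the group means was control refed, control fasted, LG2KO refed and LG2KO fasted.

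Of the 4 probe sets for Enho, the 2 brightest showed the genotype difference. The array annotation gives these 2 the same source sequence, and a different sequence for the 2 dimmer sets. The second bright set is therefore not independent of the first. The second of them, 1452893_s_at, stood at 8.96, 9.13 and 8.69 on LG2KO refed arrays, against 9.64, 10.07 and 9.76 on control refed arrays. After fasting its range was 8.14 to 8.43 on LG2KO arrays, against 9.04 to 9.64 on control arrays. Its groups did not overlap in either feeding state. Tested among all 45101 probe sets, its difference between LG2KO and control was -1.05 ± 0.17 after fasting (limma, adjusted p = 0.02396) and -0.90 ± 0.17 after refeeding (limma, adjusted p = 0.05868). In that same wider test the fasted difference of 1428739_at, the probe set used for the gene, had an adjusted p of 0.05081. The dimmer probe sets 1433382_at and 1454585_at differed by -0.01 ± 0.13 and -0.12 ± 0.10 between genotypes, averaged over feeding, and did not pass. Whether the 4 sets read the same transcript was not tested.

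**Figure D2:**
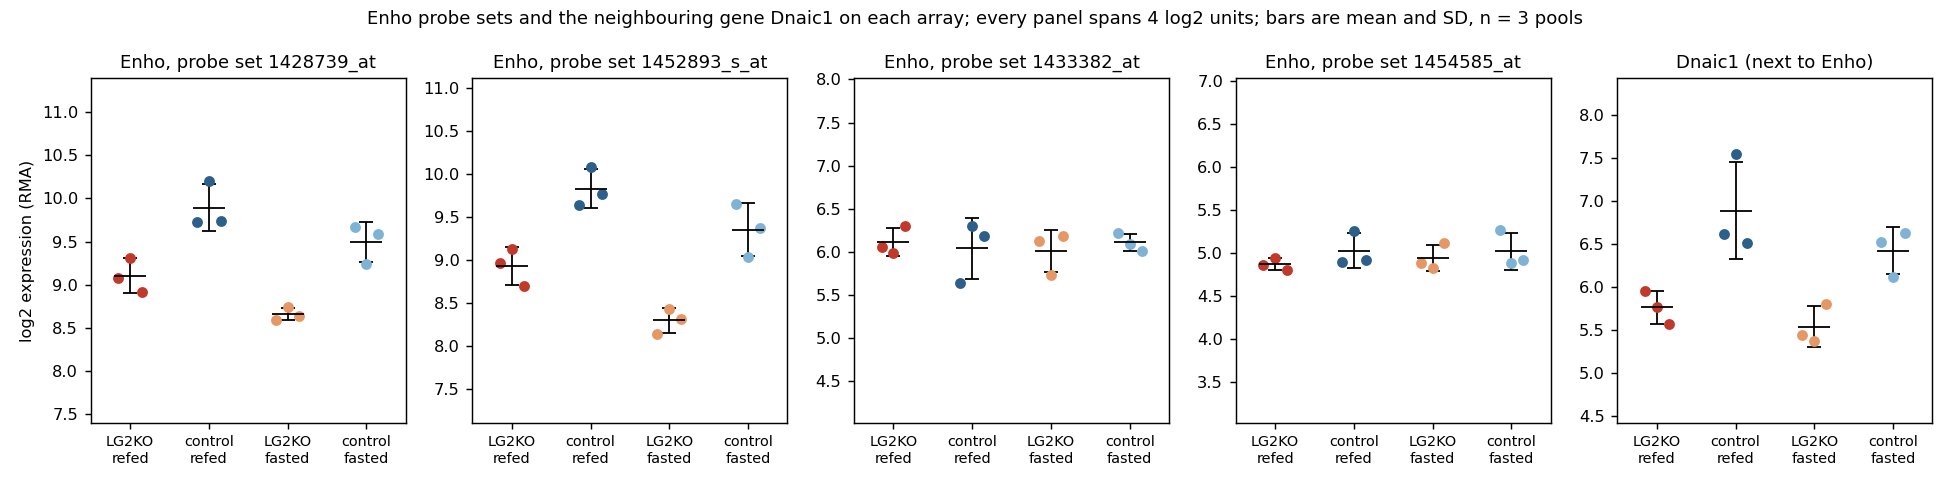
Log2 expression of the 4 Enho probe sets and of Dnaic1, the gene next to Enho, on each of the 12 arrays; points are arrays, bars are group mean and SD of 3 pools, and every panel spans 4 log2 units. LG2KO arrays lie below control arrays of the same feeding state for 1428739_at, 1452893_s_at and Dnaic1, whereas the 2 dimmer Enho probe sets differ by -0.01 and -0.12 between genotypes.

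The gene whose pattern over the 12 arrays was most like that of Enho was its neighbour on chromosome 4, Dnaic1, which encodes a dynein chain of motile cilia. Pearson's r was 0.935 over the 12 arrays, among 9096 genes with a mean above the median. The correlation is a description, since all 12 arrays enter and the groups differ, and a gene chosen by it tends to share the genotype difference of Enho. Dnaic1 is also among the adjacent genes, which were named without regard to values. Dnaic1 stood at 5.96, 5.76 and 5.58 log2 units on LG2KO refed arrays, against 6.62, 7.54 and 6.51 on control refed arrays. After fasting it stood at 5.44, 5.37 and 5.81 on LG2KO arrays, against 6.52, 6.11 and 6.63 on control arrays. The highest LG2KO array was below the lowest control array over both feeding states. Of all genes 0.236% were separate in this direction and 0.528% in the other. Averaged over feeding, the difference between LG2KO and control was -1.0 ± 0.17 (limma, adjusted p = 0.01797), while it did not pass in refed liver alone (-1.12 ± 0.25, adjusted p = 0.09464) or in fasted liver alone (-0.88 ± 0.25, adjusted p = 0.3038).

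The next genes by likeness to Enho were Rad23b (r = 0.922) and Gba2 (r = 0.914), which also lie on chromosome 4. Gba2 is 26 and Rad23b 108 measured genes from Enho in the RefSeq order. Averaged over feeding, the difference between LG2KO and control was -0.46 ± 0.09 for Rad23b and -0.40 ± 0.09 for Gba2, given with no test because both were chosen for their likeness to Enho. Of the 20 measured genes nearest to Enho, 1 passed that comparison. It was Dnaic1, and it was also the single one to pass among the nearest 50 and the nearest 100, next to 1.02% of all genes. Of the nearest 100, 13 had an unadjusted p below 0.05 in limma, as had 1612 of all 18194 genes. Rad23b lies outside these windows.

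Lect2 was the other hepatokine whose averaged feeding difference passed. It stood at 11.24, 10.84 and 10.61 log2 units on LG2KO refed arrays and at 10.75, 10.83 and 10.32 on LG2KO fasted arrays. In control liver it stood at 11.44, 11.39 and 11.20 after refeeding and at 10.68, 10.89 and 10.95 after fasting. Refed and fasted control arrays did not overlap, whereas those of LG2KO liver did. Refed minus fasted was 0.26 ± 0.16 in LG2KO liver (limma, adjusted p = 0.4825) and 0.50 ± 0.16 in control liver (limma, adjusted p = 0.09543), and averaged over genotype it was 0.38 ± 0.11 (limma, adjusted p = 0.04394). That averaged call held in 2 of the 12 fits without 1 array, those without LG2KO refed array 3 and without LG2KO fasted array 2, and was lost in the other 10, with adjusted p up to 0.1111. Without the 2 arrays that stood apart it was 0.28 (adjusted p = 0.08011). LG2KO minus control was -0.45 ± 0.16 after refeeding (limma, adjusted p = 0.3756) and -0.21 ± 0.16 after fasting (limma, adjusted p = 0.9999), and the interaction of -0.25 ± 0.23 did not pass (95% interval from -0.74 to 0.25). The lowest Lect2 value came from LG2KO fasted array 3, and without it the fasted genotype difference was -0.05, refed minus fasted was 0.10 in LG2KO liver and the interaction was -0.40. In that fit the control feeding difference passed (0.50, limma, adjusted p = 0.0492), as in none of the other 11. Across the fits without 1 array, refed minus fasted in LG2KO liver ranged from 0.09 to 0.40 and the interaction from -0.42 to -0.10.

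Averaged over genotype, 4 of the 8 hepatokine genes passed the comparison of refed with fasted liver: Angptl8, Enho and Lect2 higher and Angptl4 lower. Of all genes 13.6% passed it. The median of the 8 averaged differences was 0.19, against -0.00 for all 18194 genes. In the interaction of genotype with feeding, 0 of the 8 passed, against 0.0055% of all genes, which is the 1 gene Pklr, and 861 genes had an unadjusted p below 0.05. None of the 8 hepatokine genes was among those 861.

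Fgf21 did not pass in any comparison in the fit used here, and its spread between pools was wide in control liver. It stood at 6.18, 6.40 and 6.46 log2 units on LG2KO refed arrays and at 6.93, 6.78 and 7.08 on LG2KO fasted arrays. In control liver it stood at 5.66, 7.09 and 7.04 after refeeding and at 6.53, 7.84 and 7.11 after fasting. The LG2KO refed and fasted arrays did not overlap, and the control arrays did. The SD of 3 pools was 0.81 on control refed and 0.66 on control fasted arrays, against 0.15 on LG2KO refed and 0.15 on LG2KO fasted arrays. Refed minus fasted was -0.59 ± 0.36 in LG2KO liver (95% interval from -1.37 to 0.20, limma, adjusted p = 0.4751). In control liver it was -0.56 ± 0.36 (95% interval from -1.35 to 0.22, limma, adjusted p = 0.5289). Without control refed array 1, which stood apart and held the lowest value, the control difference was -0.09. LG2KO minus control was -0.25 ± 0.36 after refeeding and -0.23 ± 0.36 after fasting. Without control refed array 1 the refed value was -0.72, and it lay between -0.72 and -0.0066 in the fits without 1 array, passing in none of the 12. After fasting the value was 0.11 without control fasted array 2, the highest for Fgf21. Over all 22 alternatives, refed minus fasted in LG2KO liver passed in 1 (limma, adjusted p = 0.04777). The intervals above rest on a spread shared by all 4 groups. They span changes of more than 2-fold, so a difference of that size was not resolved for Fgf21 at that spread.

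Inhbe, which shares the promoter element with Fgf21, did not pass either. It stood at 8.67, 9.19 and 8.71 log2 units on LG2KO refed arrays and at 8.27, 8.58 and 8.55 on LG2KO fasted arrays. Control liver gave 8.74, 9.43 and 8.92 after refeeding and at 8.34, 9.16 and 8.53 after fasting. The second array was the highest of each group, though the replicate numbers were not found to pair the arrays. Refed minus fasted was 0.39 ± 0.23 in LG2KO liver (limma, adjusted p = 0.4327) and 0.35 ± 0.23 in control liver (limma, adjusted p = 0.5345). Without LG2KO refed array 2, which held the highest LG2KO value, the LG2KO feeding difference was 0.23. The control difference was 0.15 without control refed array 2 and 0.59 without control fasted array 2. LG2KO minus control was -0.17 ± 0.23 after refeeding and -0.21 ± 0.23 after fasting. The refed value was -0.34 without LG2KO refed array 2, -0.31 without control refed array 1 and 0.03 without control refed array 2, and the fasted value was 0.03 without control fasted array 2. Within groups Fgf21 and Inhbe deviated from their group means together, with r = 0.714 over the 12 arrays, as a description. Control refed array 1, which stood apart, was the lowest of its group for both genes. Control fasted array 2 was the highest of its group for both. The correlation without these arrays was not computed. Angptl8, whose window holds the same element, deviated with r = -0.18 to Fgf21 and 0.25 to Inhbe. Ahsg deviated as strongly the other way, with r = -0.714 to Fgf21 and -0.699 to Inhbe.

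Ahsg and Fetub lie next to each other on chromosome 16 and belong to the same gene family. Ahsg stood at 13.75, 13.69 and 13.68 log2 units on LG2KO refed arrays, against 13.83, 13.78 and 13.81 on control refed arrays. After fasting it stood at 13.70 on all 3 LG2KO arrays, against 13.82, 13.77 and 13.79 on control arrays. Over both feeding states no LG2KO array reached a control array. Of all genes 0.236% were separate in this direction and 0.528% in the other. The size was small: the averaged difference between LG2KO and control was -0.10 ± 0.03, 1.07-fold lower, with an unadjusted p of 0.00337 and an adjusted p of 0.1541 in limma. It was -0.10 ± 0.04 after refeeding and -0.09 ± 0.04 after fasting. The refed value ranged from -0.12 to -0.09 in the fits without 1 array. After centring each array on its hepatocyte markers the refed value was 0.00. That value leans on control refed array 1, which stood apart. Its marker median was shifted by 0.14, against -0.18 and -0.21 on control refed arrays 2 and 3. Centring without that array was not run. The probe set lay near percentile 99.9 of all probe sets on the 12 arrays.

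Fetub showed less difference with genotype than between pools. It stood at 12.77, 12.68 and 12.75 log2 units on LG2KO refed arrays and at 12.83, 12.76 and 12.84 on LG2KO fasted arrays. Its control values were 12.72, 12.76 and 12.60 after refeeding and at 12.91, 12.83 and 12.79 after fasting. Refed control arrays lay below fasted control arrays, and the LG2KO arrays overlapped. Refed minus fasted was -0.08 ± 0.06 in LG2KO liver and -0.15 ± 0.06 in control liver (limma, adjusted p = 0.5908 and 0.1746), and LG2KO minus control was 0.04 ± 0.06 after refeeding and -0.03 ± 0.06 after fasting.

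**Figure D3:**
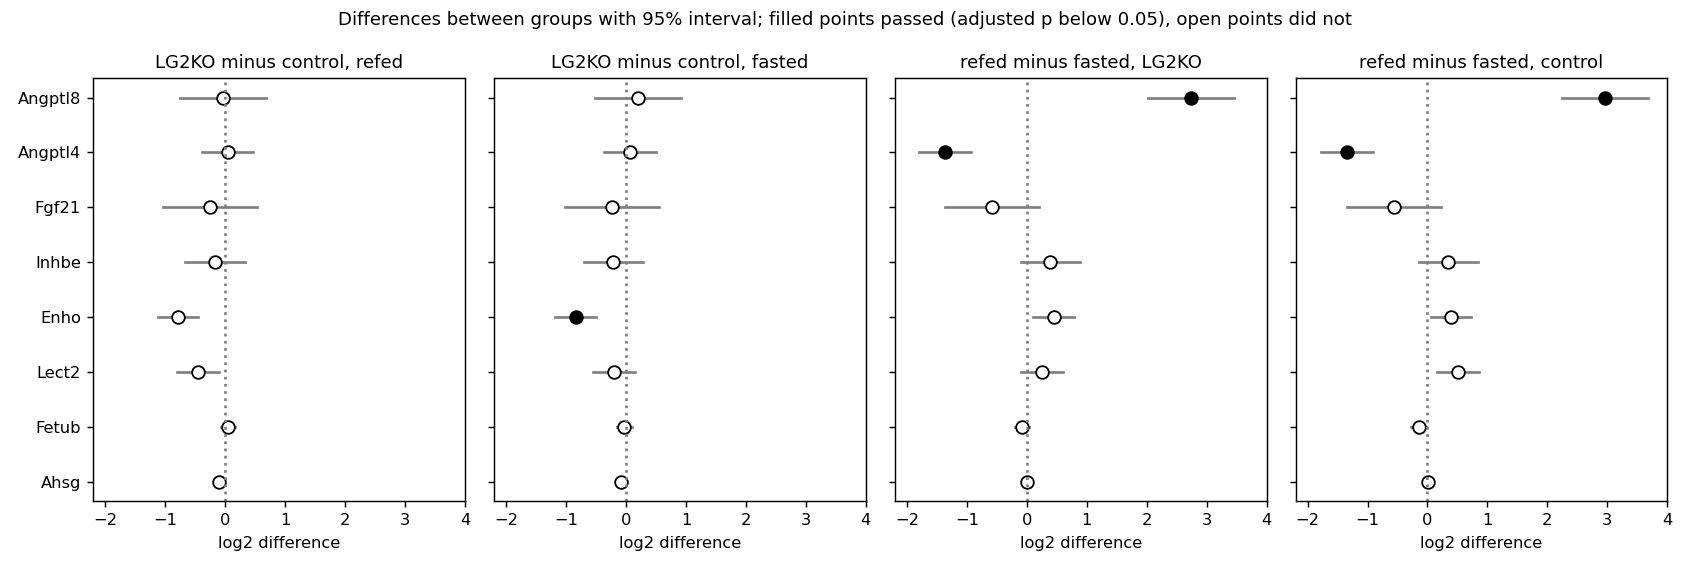
Log2 differences of the 8 hepatokine genes in the 4 comparisons, with 95% intervals; filled points passed the test and open points did not. Angptl8 and Angptl4 passed with opposite signs in both feeding comparisons, Enho passed in fasted liver, and the other points are open.

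Counted by overlap of the arrays, the groups were separate for 2 of the 8 genes between LG2KO and control refed liver, where 15.4% of all genes were separate. They were separate for 2 between LG2KO and control fasted liver (10.8% of all genes). Between refed and fasted liver they were separate for 5 of 8 in LG2KO mice (22.5% of all genes) and for 5 of 8 in control mice (20.5%). The separate genes in both genotype comparisons were Enho and Ahsg. The median difference of the 8 genes between LG2KO and control was -0.14 in refed and -0.15 in fasted liver, against 0.02 and -0.00 for all genes.

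Beyond these 8 genes, 40 of 46 other listed regulators that liver can secrete were measured. Their counts, and those of the lists after them, stand beside 0.379% and 0.396% of all genes passing between LG2KO and control in refed and fasted liver, 7.05% and 6.46% passing between refed and fasted in LG2KO and control liver, and 1.02% and 13.6% passing in the genotype and feeding comparisons averaged over the other factor. Between LG2KO and control liver 1 rose and 0 fell after refeeding, and 0 passed after fasting. Lcn2, which encodes the iron-scavenger carrier lipocalin-2, stood at 10.4, 10.8 and 12.2 log2 units on LG2KO refed arrays, against 8.49, 8.52 and 7.79 on control refed arrays. The groups were far apart, and the difference was 2.84 ± 0.48 (limma, adjusted p = 0.03604). Lymphocyte and neutrophil markers had a mean of 5.17 to 5.86 on LG2KO refed arrays, against 5.18 to 5.37 on control refed arrays, with the highest on the array where Lcn2 was highest, and their part in the Lcn2 result was not tested.

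Averaged over feeding, 3 of the 40 rose in LG2KO liver and 0 fell. Besides Lcn2 they were Nrg4, an epidermal growth factor family ligand, with a difference of 0.59 ± 0.11 (limma, adjusted p = 0.0202), and Fst, the activin-binding protein follistatin, with 0.56 ± 0.10 (limma, adjusted p = 0.02355). Nrg4 stood at 6.30, 6.51 and 6.31 on LG2KO refed arrays, against 5.59, 6.08 and 5.94 on control refed arrays. The highest of these came from the array with the highest adipose signal, and the part of adipose tissue in the Nrg4 result was not tested. Fst stood at 6.61, 6.31 and 6.44 on LG2KO refed arrays, against 5.90, 5.68 and 5.75 on control refed arrays, and at 6.45, 6.26 and 6.37 on LG2KO fasted arrays, against 6.07, 5.59 and 6.08 on control fasted arrays. All 6 LG2KO arrays lay above all 6 control arrays, as for 0.528% of all genes, while 0.236% were separate in the other direction. With refeeding, 3 of the 40 rose and 1 fell in LG2KO liver, and 5 rose and 1 fell in control liver. Nrg4 fell in both, with differences of -1.18 ± 0.15 in LG2KO and -1.0 ± 0.15 in control liver (limma, adjusted p = 0.0005 and 0.001489). Igfals, the carrier subunit of circulating insulin-like growth factors, rose in both, with 0.95 ± 0.09 in LG2KO and 0.57 ± 0.09 in control liver (limma, adjusted p = 5.454e-05 and 0.001884).

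**Figure D4:**
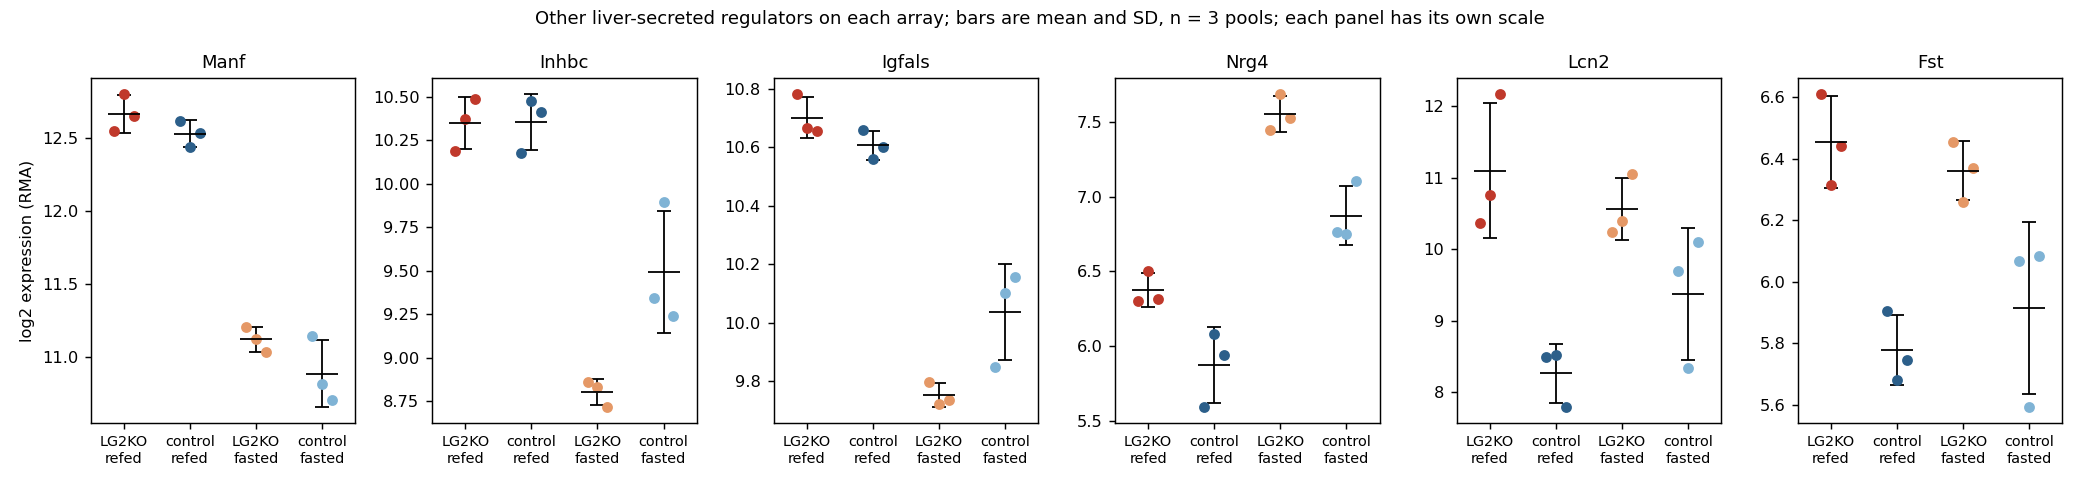
Log2 expression of 6 other liver-secreted regulators on each of the 12 arrays; points are arrays, bars are group mean and SD of 3 pools, and each panel has its own scale. Manf, Inhbc and Igfals lie higher and Nrg4 lies lower on refed than on fasted arrays of the same genotype, while Fst lies higher on all 6 LG2KO arrays than on the 6 control arrays.

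Among receptors and co-receptors of these proteins, 19 of 20 listed genes were measured and 0 passed between LG2KO and control liver in either feeding state. With refeeding, 1 rose and 1 fell in LG2KO liver: Fgfr4, an FGF receptor of hepatocytes, with a log2 difference of 0.58 ± 0.10 (limma, adjusted p = 0.004581), and Insr, the insulin receptor, with -1.39 ± 0.26 (limma, adjusted p = 0.006757). In control liver 2 fell, the activin receptors Acvr1b (-0.50 ± 0.11, adjusted p = 0.0144) and Acvr2b (-0.56 ± 0.13, adjusted p = 0.01863). Klb, which encodes beta-klotho, was lower in refed than in fasted liver, with a difference of -0.50 ± 0.14 averaged over genotype (limma, adjusted p = 0.03088). Klb passed in neither genotype alone (limma, adjusted p = 0.1388 in LG2KO and 0.254 in control liver), and its refed and fasted arrays overlapped in both. Averaged over genotype 1 of the 19 rose and 4 fell with refeeding, and averaged over feeding 0 passed between genotypes. Fgfr1 did not pass, at 0.15 ± 0.15 in LG2KO and -0.42 ± 0.15 in control liver for refed minus fasted.

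Of the 9 measured lipase partners of the angiopoietin-like proteins, 0 passed with genotype in either feeding state. Averaged over feeding 1 rose in LG2KO liver, Pcsk6, a proprotein convertase, with a difference of 0.41 ± 0.08 (limma, adjusted p = 0.0345). Apoa5, whose product promotes lipase activity, was the 1 that passed with refeeding within each genotype, lower by a log2 difference of -0.27 ± 0.05 in LG2KO liver (limma, adjusted p = 0.004381) and of -0.25 ± 0.05 in control liver (limma, adjusted p = 0.007704). Averaged over genotype Lmf1, a lipase maturation factor, also passed, with 0.28 ± 0.08 (limma, adjusted p = 0.03267). Lpl itself differed by 0.18 ± 0.30 in LG2KO and 0.19 ± 0.30 in control liver and did not pass.

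Angptl4 and Fgf21 are known PPARalpha targets, and 21 other genes of a list for PPARalpha and its targets were measured. Of the 21, 0 rose and 5 fell with refeeding in LG2KO liver, and 0 rose and 6 fell in control liver. Averaged over genotype, 1 rose and 8 fell. Cpt1a, which admits fatty acids to mitochondria, fell, with a difference of -1.18 ± 0.11 in LG2KO liver (limma, adjusted p = 6.833e-05) and of -1.30 ± 0.11 in control liver (limma, adjusted p = 3.114e-05). Slc25a20, the carnitine carrier, fell too, with -0.58 ± 0.08 in LG2KO and -0.60 ± 0.08 in control liver. Ppara itself differed by -0.34 ± 0.28 in LG2KO and -0.14 ± 0.28 in control liver and did not pass. Between LG2KO and control, 0 of the 21 passed in refed or in fasted liver, while 3 fell and 0 rose averaged over feeding. They were Cyp4a14, a fatty acid hydroxylase (-0.37 ± 0.06, limma, adjusted p = 0.01797), Ehhadh, a peroxisomal oxidation enzyme (-0.77 ± 0.14, adjusted p = 0.02257), and Acot1, an acyl-CoA thioesterase (-0.76 ± 0.15, adjusted p = 0.03447).

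Fgf21 and Inhbe are also known targets of the integrated stress response, of which 20 other genes were measured. Between LG2KO and control refed liver 1 rose and 1 fell: Trib3, a pseudokinase induced by ATF4, with a difference of 0.71 ± 0.13 (limma, adjusted p = 0.04048), and Atf4 with -0.45 ± 0.09 (limma, adjusted p = 0.04765). In fasted liver 0 passed, and averaged over feeding Atf4 alone passed, lower by a log2 difference of -0.38 (limma, adjusted p = 0.01066). With refeeding 3 rose and 2 fell in LG2KO liver, and 4 rose and 3 fell in control liver. Ddit3, which encodes the stress factor CHOP, rose in both, by 0.82 ± 0.12 in LG2KO and 0.81 ± 0.12 in control liver (limma, adjusted p = 0.001198 and 0.001388), whereas Trib3 fell in both, with -0.64 ± 0.13 in LG2KO and -1.43 ± 0.13 in control liver (limma, adjusted p = 0.008614 and 3.114e-05).

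Angptl8 is known as an insulin-induced gene with a carbohydrate-responsive promoter, and 18 genes of the ChREBP and insulin class were measured. In LG2KO against control liver 3 rose and 0 fell after refeeding, 14 rose and 0 fell averaged over feeding, and 13 rose and 0 fell after fasting, where Angptl8 itself differed by 0.20 ± 0.33. Pklr, the liver pyruvate kinase, was higher by 1.92 ± 0.12 in fasted LG2KO than in fasted control liver (limma, adjusted p = 7.405e-06). With refeeding 4 of the 18 rose and 3 fell in LG2KO liver, and 11 rose and 1 fell in control liver. Srebf1, the insulin-induced lipogenic factor, rose by 1.65 ± 0.10 in LG2KO and by 1.38 ± 0.10 in control liver (limma, adjusted p = 3.132e-06 and 7.593e-06).

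By likeness over the 12 arrays, Angptl8 was followed most closely by Manf (r = 0.977), Dnajb11 (r = 0.974) and Hyou1 (r = 0.970). Manf, a secreted protein of the endoplasmic reticulum, was higher in refed than in fasted liver by 1.54 ± 0.11 in LG2KO mice and 1.64 ± 0.11 in control mice. Angptl4 was followed by Hoga1 (r = 0.979), Slc10a6 (r = 0.970) and Gpt2 (r = 0.968), of which Gpt2, an alanine aminotransferase, was lower in refed liver, with differences of -0.86 ± 0.10 in LG2KO and -0.87 ± 0.10 in control mice. These correlations over 12 arrays describe genes that share the feeding difference for which they were chosen, so no test is given, and each pair shares the same RNA pools.

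Some genes adjacent to the hepatokine genes, by order of start position on the chromosome, differed with feeding too. Whether adjacent genes overlap was not examined. Of 14 measured neighbours, 3 passed between refed and fasted LG2KO liver and 5 in control liver, where 7.05% and 6.46% of all genes passed, while 0 passed between LG2KO and control in either feeding state. Dock6, which precedes Angptl8 in that order on chromosome 9, was higher in refed than in fasted liver by 0.52 ± 0.11 in LG2KO and by 0.58 ± 0.11 in control mice (limma, adjusted p = 0.01513 and 0.008335). Inhbc, next to Inhbe on chromosome 10 and also an activin subunit, rose by 1.55 ± 0.15 in LG2KO and by 0.86 ± 0.15 in control mice (limma, adjusted p = 8.383e-05 and 0.004636), whereas Inhbe did not pass. The interaction for Inhbc, 0.68 ± 0.22, did not pass (limma, adjusted p = 0.8316).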

How the data were processed

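Liver RNA was hybridised to an Affymetrix mouse array, 1 pool of 3 animals per array, per the labels' protocols. The deposited values are log2 expression per probe set, which the authors made with RMA, per the submitters' processing notes; no software version or genome build is given in the sources used here. Of 45101 probe sets, 34958 carried 1 gene symbol, 932 several and 9211 none in the annotation used. A gene with several probe sets took its values from the brightest of them (mean of all 12 arrays, regardless of group), and no filter on dim genes was applied. Groups were compared with limma 3.58.1 in R 4.3.3 (1 mean per group, intensity trend, 8 residual degrees of freedom, two-sided, Benjamini-Hochberg over 18194 genes, adjusted p below 0.05). The fit was tested on simulated data. The number of arrays limits the precision. The genes and gene lists were chosen with earlier results of these data known. Named genes were all 8 measured hepatokine genes in every comparison, up to 4 passing genes per list and comparison, fixed regulators and receptors, the 3 genes most correlated with Angptl4, Angptl8 and Enho, and adjacent genes. The averages over feeding or genotype were added after the values were seen. The plots used matplotlib 3.10.9 (Python 3.11.15). Alternatives tried were array weights, no trend, only the groups compared, averaged probe sets, genes above the median mean, centring on hepatocyte markers, a replicate block and leaving out arrays.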

Additional observations from a re-analysis of the deposited data

How the results depend on the processing

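The feeding differences of Angptl8 and Angptl4 kept their sign and passed in both genotypes in all fits that left out 1 array. The number of hepatokine genes passing between LG2KO and control fasted liver, 1 (Enho), was 0 without the intensity trend, with only the groups compared, with probe sets averaged, after centring on hepatocyte markers, with the replicate block, without the 2 arrays that stood apart, and without those 2 and the array with pancreas transcripts, and it ranged from 0 to 1 when 1 array was left out. Between LG2KO and control refed liver it was 1 with array weights and 1 among genes above the median mean, against 0. Between refed and fasted liver it was 4 in LG2KO after hepatocyte centring, and 4 in control with array weights and 4 after centring, against 2 in each; averaged over feeding the genotype count was 2 among genes above the median mean, against 1, and averaged over genotype the feeding count ranged from 2 to 4 without 1 array. With hepatocyte centring the median refed minus fasted difference of all genes was 0.30 in LG2KO and 0.23 in control liver. Without it the medians were 0.01 and -0.01. Of the 9 centring markers measured, 0 rose and 3 fell with refeeding averaged over genotype. Centring on markers that lie lower on refed arrays raises every refed minus fasted value. The counts of 4 and the Fetub signs after centring carry that shift. Why the markers fell, and the cause of the other shifts, was not tested.

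Of the single hepatokine values under all alternatives, 869 kept sign and side of the threshold, 32 no longer passed, 12 newly passed and 43 changed sign, most of them small differences. With array weights the Angptl4 difference of LG2KO from control in refed liver was -0.10 and the Enho interaction -0.14. Without the 2 arrays that stood apart, refed LG2KO minus control was -0.16 for Angptl4 and 0.025 for Angptl8, and the Enho interaction -0.035. Without those 2 and the array with pancreas transcripts, the same values were -0.16, 0.025 and -0.081, and fasted LG2KO minus control was -0.22 for Angptl8 and 0.0074 for Lect2, the Angptl8 interaction 0.25 and refed minus fasted control Ahsg -0.0006. With probe sets averaged, the fasted genotype difference of Angptl4 was -0.029 and its interaction 0.055. After hepatocyte centring the Angptl4 interaction was 0.016, refed LG2KO minus control was 0.069 for Angptl8 and 0.0007 for Ahsg, fasted LG2KO minus control was 0.030 for Fetub, and refed minus fasted Fetub was 0.21 in LG2KO and 0.10 in control. When 1 array was left out, LG2KO minus control in refed liver ranged from -0.16 to 0.23 for Angptl4, -0.31 to 0.23 for Angptl8, -0.0033 to 0.074 for Fetub and -0.34 to 0.027 for Inhbe. In fasted liver it ranged from -0.55 to 0.11 for Fgf21, -0.058 to 0.14 for Angptl4, -0.22 to 0.53 for Angptl8, -0.057 to 0.0016 for Fetub and -0.38 to 0.028 for Inhbe. The interaction ranged from -0.23 to 0.16 for Angptl4, -0.56 to 0.19 for Angptl8 and -0.051 to 0.21 for Enho, and refed minus fasted LG2KO Ahsg from -0.0162 to 0.0184.

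Replicate numbers gave no clear pairing of the arrays. Deviations of 18 same-numbered pairs correlated from -0.464 to 0.769 (median -0.085), and 6 of 12 arrays correlated best with their own number. With so few arrays per group this check cannot exclude a pairing. With the replicate block the hepatokine genes passing were 0 between genotypes in refed and 0 in fasted liver, 2 in each feeding comparison, 0 in the interaction, 1 averaged over feeding and 5 averaged over genotype.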
